A study of Mus musculus with 9 samples.

Results

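Myc, its binding partner Max, 6 genes of nucleolar proteins (Ncl, Npm1, Fbl, Nop56, Nop58 and Rrs1) and the polyamine enzyme gene Odc1 were measured in 3 sorted thymocyte populations. These 9 genes, of 31053 listed, were taken by name, because most are textbook targets of Myc, and all 9 passed a floor of 5 CPM in every gate, where CPM is UMI counts (of single RNA molecules) per 1000000 of a group's total. Thymocytes of adult female mice came from wild-type (WT) animals and from animals carrying I173A, a substitution in CD3ε, which belongs to the signalling complex of the T cell receptor (TCR). An antibody carrying an oligonucleotide (hashtag) marked each genotype, hashtag 4 for WT and hashtag 6 for I173A. Cells were then sorted into CD4 single-positive (CD4 SP), CD8 single-positive (CD8 SP) and double-positive (DP) gates and sequenced from the 5′ end of transcripts on the 10x platform. No treatment is given in the labels, and neither the number of mice nor whether the substitution was on both alleles is given in the sources used here. Each genotype was therefore 1 sample per gate, so no test was possible. Higher and lower describe these samples, and all 95% intervals cover counting error only.

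Myc is a transcription factor that pairs with Max to bind the E-box CACGTG, and it raises many genes of ribosome production and cell growth. Ribosomes are assembled in the nucleolus, where nucleolin (Ncl) and nucleophosmin (Npm1) handle ribosomal RNA and its precursors. Fibrillarin (Fbl), Nop56 and Nop58 are the shared proteins of the box C/D particles that methylate ribosomal RNA, and Rrs1 acts in assembly of the large subunit. Odc1 encodes ornithine decarboxylase, which makes the first polyamine of the pathway. In the thymus, Myc is known for the growth and division of cells that have just passed TCR β selection, and DP cells stop dividing before they are tested for selection.

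The genes lie apart in the genome (GRCm38.p6, RefSeq annotation). Myc is on chromosome 15, 61985341 to 61990361, and Max on chromosome 12, 76937269 to 76962323. Ncl (86344719 to 86359455), Nop58 (59684961 to 59711510) and Rrs1 (9545408 to 9547455) are on chromosome 1. Nop56 is on chromosome 2 (130274367 to 130279313), Fbl on chromosome 7 (28168893 to 28179269), Npm1 on chromosome 11 (33152498 to 33164142) and Odc1 on chromosome 12 (17544808 to 17551502). All 9 are protein-coding.

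RefSeq promoter windows, which run from 250 bases before a start site to 50 after it, were matched for 5 members (Max, Ncl, Nop56, Nop58 and Odc1) and searched for the E-box CACGTG, which reads the same on both strands. It occurred in 1 of these 5, Max, with its first base 3 bases before the start site, and in 8.09% of 27025 genes with a window. Shown are the window of Max, with the motif in capitals, and those of Nop58 and Odc1, the nucleolar gene and the enzyme gene with the lowest I173A to WT ratios in DP cells. Each runs 5′ to 3′ on the gene's strand and is cut 20 bases after the start site. They lie at chr12:76962229-76962498 (minus strand), chr1:59684756-59685025 (plus strand) and chr12:17544623-17544892 (plus strand) in GRCm38.p6. The start sites of these windows lie inside the gene spans given above, not at their outer ends.
Max: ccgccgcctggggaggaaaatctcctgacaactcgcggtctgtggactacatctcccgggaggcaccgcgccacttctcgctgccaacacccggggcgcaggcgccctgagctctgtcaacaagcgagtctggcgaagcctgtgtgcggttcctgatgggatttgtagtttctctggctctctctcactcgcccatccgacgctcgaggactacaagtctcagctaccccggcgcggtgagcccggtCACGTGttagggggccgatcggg
Nop58: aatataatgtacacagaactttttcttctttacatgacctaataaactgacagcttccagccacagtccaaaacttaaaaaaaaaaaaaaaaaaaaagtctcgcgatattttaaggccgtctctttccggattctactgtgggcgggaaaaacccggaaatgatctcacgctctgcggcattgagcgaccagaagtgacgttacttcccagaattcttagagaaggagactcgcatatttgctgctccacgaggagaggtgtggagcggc
Odc1: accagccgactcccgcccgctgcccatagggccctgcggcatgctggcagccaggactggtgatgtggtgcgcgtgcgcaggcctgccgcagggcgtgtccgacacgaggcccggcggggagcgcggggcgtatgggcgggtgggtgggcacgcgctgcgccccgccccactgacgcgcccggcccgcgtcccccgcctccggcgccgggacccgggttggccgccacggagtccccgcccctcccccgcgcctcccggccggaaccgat
The letters CACGTG were not in the 300 bases of the Nop58 or Odc1 window, and the match in Max is a description of the sequence only. Sequence outside the windows, such as the rest of each gene, was not searched, so sites there are not covered.

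The CD4 SP gate held 3109 WT and 2664 I173A cells, the CD8 SP gate 3017 and 2872, and the DP gate 2516 and 2706, with between 8659807 and 22544044 unique molecular identifiers (UMIs) per group. Median UMIs per cell, WT before I173A, were 6079 and 5786.5 for CD4 SP, 5704 and 5271.5 for CD8 SP and 2906.5 and 2750.5 for DP. Cd4 was at 371 CPM in WT CD4 SP cells and 3.99 in CD8 SP, and Cd8a at 27.9 and 1102 CPM, while DP cells had both at 653 and 2320 CPM, as their gates require. Another hashtag, 5, was present in all 3 libraries without a genotype in the labels, and its cells entered no comparison. Between 43 and 52 barcodes of kept cells were shared by each pair of libraries. Of 8 macrophage or dendritic cell markers, 7 or 8 were detected in each group, with a summed level of 130 CPM in WT and 313 CPM in I173A CD8 SP cells against 143 and 141 in CD4 SP and 194 and 208 in DP. Leaving out the macrophage-like cluster together with 2 low-RNA clusters moved none of the gate values by more than their error.

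In WT cells Myc was lowest in the DP gate and highest in the CD8 SP gate. Its level was 132 CPM for CD4 SP, 196 for CD8 SP and 36.2 for DP cells. The DP level was 0.274 times the CD4 SP level (interval 0.245 to 0.306) and 0.185 times the CD8 SP level (0.166 to 0.206). Max did not share that order: it stood at 109 CPM for CD4 SP, 84.9 for CD8 SP and 97.8 for DP cells.

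The nucleolar genes were all highest in CD8 SP, but they were not all lowest in DP. Npm1 was at 914, 1453 and 593 CPM in WT CD4 SP, CD8 SP and DP cells, and Fbl at 211, 299 and 102 CPM. Ncl was at 437, 674 and 492 CPM, and Nop56 at 93.9, 160 and 112 CPM, so that these genes were lowest in CD4 SP. Nop58, at 120, 202 and 96.6 CPM, and Rrs1, at 45.3, 61.3 and 29.9 CPM, were lowest in DP, as Npm1 and Fbl were. Odc1 followed Ncl and Nop56, with 42.2 CPM for CD4 SP, 80.6 for CD8 SP and 57.5 for DP cells.

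Read as 2-fold differences between WT gates, 5 of the 9 genes were lower in DP than in CD8 SP (Myc, Npm1, Fbl, Nop58 and Rrs1) where 6.88% of all genes of at least 5 CPM were. Against CD4 SP, 2 of the 9 were lower in DP (Myc and Fbl; 8.59% of all genes). None was 2-fold higher in DP than in CD4 SP (15.4% of all genes) or than in CD8 SP (19.1%). Between CD8 SP and CD4 SP, 8 of the 9 were higher in CD8 SP, none by 2-fold (6.03%), and only Max was lower, which was not by 2-fold either (4.88%). By CPM the median gene was itself 0.27 (log2) higher in DP than in CD4 SP, and 0.43 higher than in CD8 SP. Relative to the median gene, Ncl and Nop56 turned to 0.930 and 0.987 times their CD4 SP level in DP (1.12 and 1.19 by CPM), and Max to 0.856 times its CD8 SP level (1.15 by CPM). Each gate was 1 library, so gate and library cannot be told apart.

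**Figure D1:**
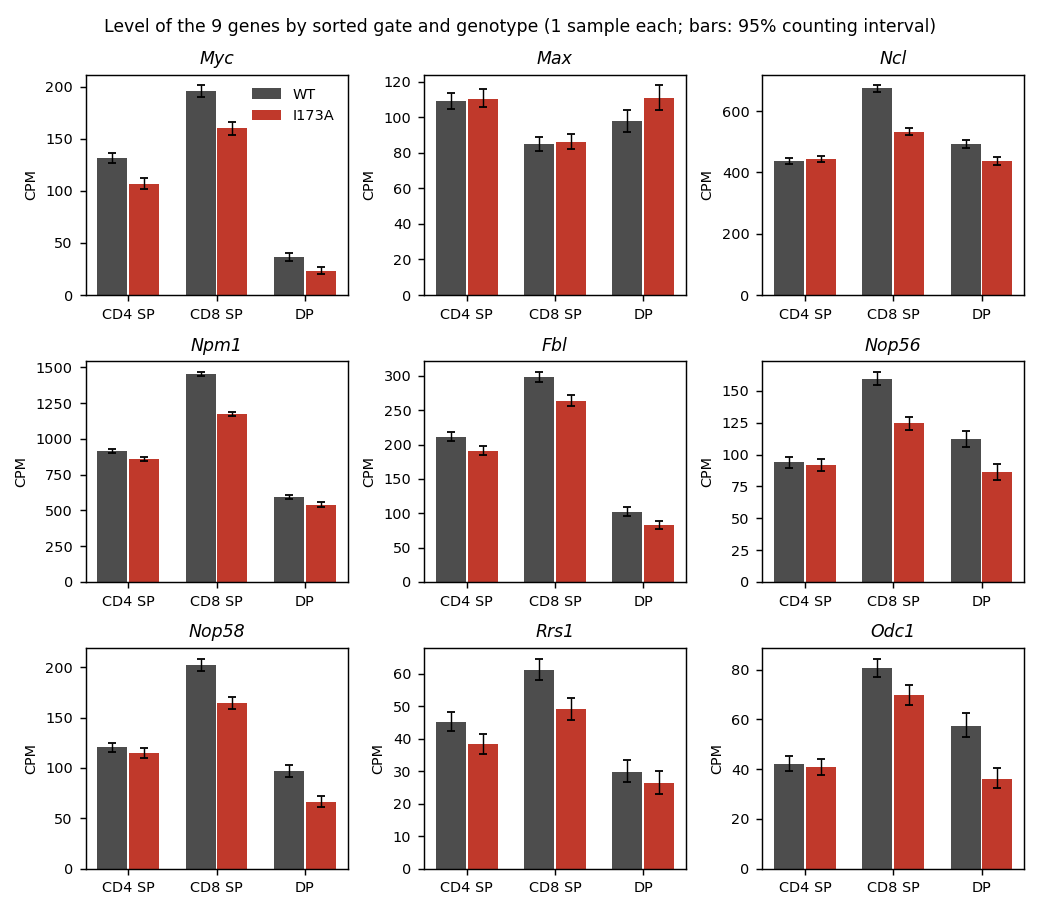
Level of each of the 9 genes in CPM (vertical axes, each from 0) by gate and genotype, WT in grey and I173A in red, with 95% counting intervals as error bars, 1 sample per bar. Myc stands at 132, 196 and 36.2 CPM in WT CD4 SP, CD8 SP and DP cells and at 107, 160 and 23.1 in I173A, while Max lies between 84.9 and 111 CPM in all 6 groups.

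The gates hold several kinds of cell, and Myc varied widely among them. Cells were clustered without the 9 genes and without related growth genes, and the clusters were named "-like" from marker genes, so the names are rebuilt and not the study's own. In WT CD8 SP cells Myc was highest in 88 agonist-selected-like cells (cluster 6, with Nr4a1 and Tnfrsf9 among its leading genes), at 415 CPM (368 to 465). The next levels were 259 CPM in CD8 SP cycling-like cells of cluster 7 and 203 CPM in the CD4 SP cells of cluster 6. For cluster 7, CD8 SP names the gate only, as the cluster also held cells of the DP gate. Nkg7, a leading gene of CD8 SP-like cluster 2 (848.9 CPM), stood at 6.83 over all cells of cluster 7. In cycling-like cluster 10 it stood at 330.4. Rag1, a leading gene of rearranging DP-like cluster 1, stood at 171.3 CPM in cluster 7 and 0.182 in cluster 10. Whether the CD8 SP gate's cells of cluster 7 were mature was not tested. Myc in the CD8 SP-like clusters 2 and 5 stood at 156 and 163 CPM and in the S phase-like cluster 9 at 191. Clustered at resolution 0.5 in place of 1, the highest Myc level was the 259 CPM of 302 CD8 SP cycling-like cells.

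The other CD4 SP clusters reached 182 CPM, in 70 innate-like cells (cluster 16), and the DP clusters reached 56.9 CPM, below each CD4 SP cluster. Mature and semimature CD4 SP-like cells were at 125 and 110 CPM, and the CD4 SP cycling-like cells of cluster 10 at 87.7 CPM. The same cluster number did not fix the level: cells of cluster 7 had 259 CPM of Myc in the CD8 SP gate and 56.9 CPM in the DP gate. Neighbours in this order often overlapped in their intervals, among them clusters 2, 10 and 5 of the CD8 SP gate (156, 162 and 163 CPM).

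Signalled-like DP cells, which carry the immediate TCR response genes, had little Myc. In cluster 11 the nuclear receptor gene Nr4a1 had 317 CPM in WT against 343 in I173A cells, and the transcription factor gene Egr1 had 1230 against 815 CPM. Myc in the same cells was at 16.1 CPM in WT (7 UMIs in 127 cells, interval 6.47 to 33.2) and 7.44 in I173A (6 UMIs in 234 cells, 2.73 to 16.2). These levels did not exceed those of rearranging DP-like cells of cluster 1, at 23.4 and 15.9 CPM. As summed cluster levels, high Nr4a1 and high Myc therefore stood together in agonist-selected-like SP cells but not in signalled-like DP cells. Whether the same single cells carried both was not tested.

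Ncl, Npm1 and Odc1 also peaked in the CD8 SP agonist-selected-like cells of the WT, at 1300, 2765 and 204 CPM. For the first 2 of these, the CD8 SP cycling-like cells of cluster 7 came next, at 1169 and 2347 CPM. This peak depended on the clustering. At resolution 0.5 Myc and the 6 nucleolar genes were highest in the CD8 SP cycling-like cells, and Odc1 in 92 DP cells at 204 CPM.

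Within the WT DP gate, clusters 8 and 14 had more Odc1 than the rearranging DP-like cluster 1, at 109 and 131 against 37.3 CPM. Npm1 was lower in both, at 185 and 209 against 503 CPM. In the cycling-like cluster 14, Nop58 was also higher than in cluster 1 (147 against 55.5 CPM), as was Ncl (512 against 415), and Nop56 stood at 128 against 91.7 CPM with overlapping intervals. In cluster 8 the intervals of Nop58 (65.9 CPM), Nop56 (83.6) and Ncl (388) overlapped those of cluster 1. Median UMIs per WT DP cell were 1524 in cluster 8, 3814 in cluster 14 and 2842.5 in cluster 1, and the part of depth in these values was not tested. Max ran the other way from the growth genes, with its lowest WT levels in cycling-like cells (63.7 CPM in DP cluster 7) and its highest in interferon-responding-like CD4 SP cells (188 CPM), though in a DP cluster at resolution 0.5 (137 CPM) and 1.5 (136 CPM).

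**Figure D2:**
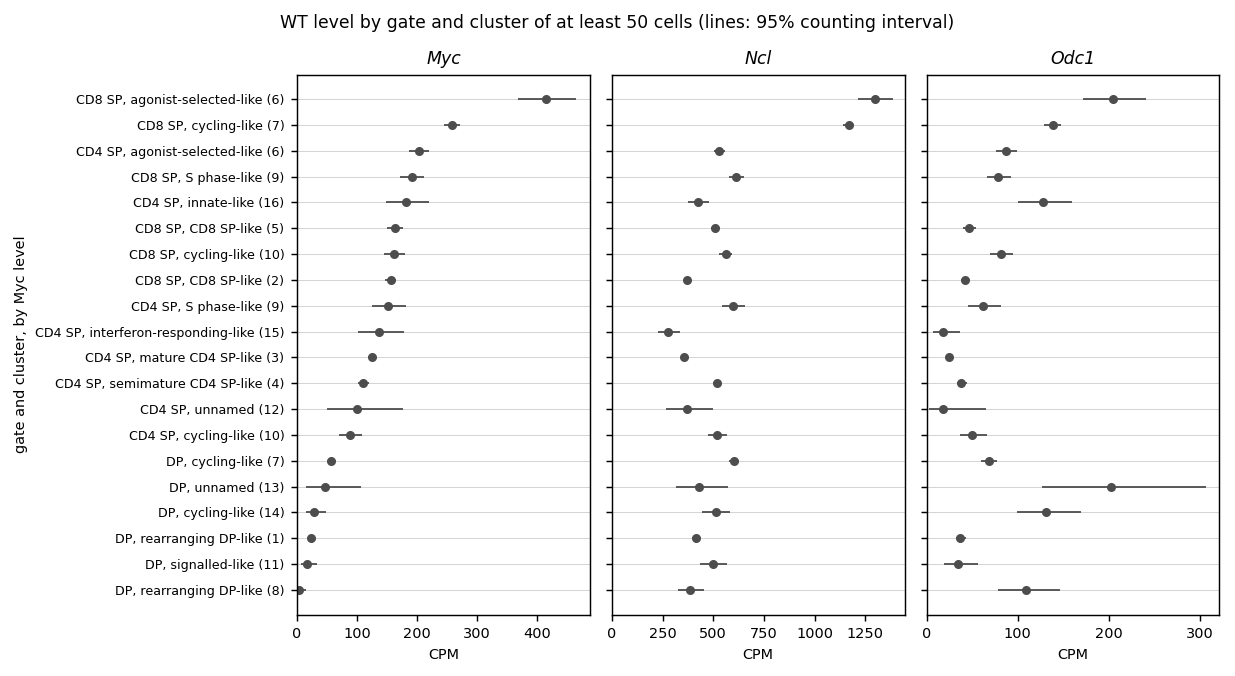
WT levels in CPM (horizontal axes) of Myc, Ncl and Odc1 in each gate and cluster of at least 50 cells, ordered by Myc, with lines for the 95% counting interval. Myc rises from 2.53 CPM (1 UMI) in DP cluster 8 to 415 in the CD8 SP agonist-selected-like cells, where Ncl and Odc1 also peak.

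Myc was lower in I173A than in WT cells in all 3 gates. CD4 SP cells had 132 CPM in WT against 107 in I173A (ratio 0.812, interval 0.765 to 0.862). CD8 SP cells had 196 against 160 CPM (0.817, 0.779 to 0.857), and DP cells 36.2 against 23.1 CPM (0.639, 0.535 to 0.761). The intervals of the genotypes did not overlap in any gate. The DP values rest on 366 and 200 UMIs and the CD4 SP values on 2706 and 1794. With both genotypes set to the WT shares of clusters, the log2 ratio of Myc in DP was -0.044 in place of -0.65.

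Jun, Hsph1 and Nr4a1, immediate early and stress genes chosen after their values were seen, differed between the genotypes in the same cells. Jun, a subunit of the AP-1 transcription factor, stood at 43.3 against 15.9 CPM for CD4 SP, 39.8 against 14.5 for CD8 SP and 106 against 44.8 for DP cells (WT against I173A). The heat shock protein gene Hsph1 stood at 46.8 against 18.01 CPM, 65.0 against 32.2 and 30.1 against 13.4 in the same order. Nr4a1 went the other way, with 151 CPM in WT and 227 in I173A for CD4 SP, 34.6 and 59.3 for CD8 SP, and a ratio of 1.70 for DP cells. Fos and Egr1, also immediate early genes, did not keep 1 direction across the gates. The I173A to WT ratio of Fos was 1.01 for CD4 SP, 1.198 for CD8 SP and 0.3495 for DP cells. Its intervals in CD4 SP (0.843 to 1.21) and CD8 SP (0.999 to 1.435) held 1. For Egr1 the ratio was 0.933 (0.894 to 0.974), 1.26 and 1.62 in the same order. Of a list of 20 TCR response genes, with Nr4a1 and Egr1 on it, 14 of 19, 17 of 20 and 11 of 13 measured were higher in I173A. Of all genes 61.9%, 55.3% and 62.7% were. By 1.2-fold 8, 12 and 10 were higher (7.80%, 15.6% and 22.5% of all genes). The list's median log2 ratios were 0.16, 0.36 and 0.54, and without cycling-like cells 0.17, 0.13 and 0.23. The part of these differences in the Myc result was not tested.

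Max was close to equal between genotypes in the SP gates and somewhat higher in I173A DP cells. The CD4 SP ratio of I173A to WT was 1.01 (0.951 to 1.08) and the CD8 SP ratio 1.02 (0.9497 to 1.09). DP cells had 97.8 CPM of Max in WT against 111 in I173A (ratio 1.13, 1.04 to 1.24), which became a ratio of 1.01 (0.916 to 1.12) without cycling-like cells. The median gene was itself 0.08 (log2) higher in I173A than in WT DP cells by CPM.

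The nucleolar genes were lower in I173A CD8 SP and DP cells, and their sum was closer to the WT level in CD4 SP. For CD8 SP cells, Ncl had 674 CPM in WT against 533 in I173A (ratio 0.791, 0.770 to 0.811) and Npm1 had 1453 against 1173 CPM (0.807, 0.793 to 0.821). The C/D particle genes had ratios of 0.884 (Fbl), 0.779 (Nop56) and 0.811 (Nop58), and Rrs1 0.800. In DP cells the lowest of the group were Nop58, at 96.6 and 66.5 CPM (0.688, 0.620 to 0.764), and Nop56, at 112 and 86.1 CPM (0.768, 0.699 to 0.843). Fbl followed at 0.811, and Ncl, Npm1 and Rrs1 lay between 0.883 and 0.911, where the interval of Rrs1 (0.741 to 1.05) held 1.

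In CD4 SP cells the 6 nucleolar ratios ran from 0.847 (Rrs1) to 1.01 (Ncl). The intervals of Npm1 (0.918 to 0.959), Fbl (0.864 to 0.947) and Rrs1 (0.765 to 0.937) lay below 1, and those of Ncl, Nop56 and Nop58 held 1. Summed over the 6 genes, WT against I173A, the level was 1823 against 1737 CPM for CD4 SP (ratio 0.953, 0.938 to 0.967), 2849 against 2307 for CD8 SP (0.810) and 1427 against 1240 for DP cells (0.869). The sum amounted to 21.3 UMIs per WT and 14.2 per I173A CD8 SP cell.

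Read as a 1.2-fold difference, 1 of the 9 genes (Myc) was lower in I173A CD4 SP cells, where 3.15% of all genes of at least 5 CPM were. In CD8 SP 6 of the 9 were lower (all but Max, Fbl and Odc1) against 13.6% of all genes, and in DP 5 of the 9 (Myc, Fbl, Nop56, Nop58 and Odc1) against 12.9%. None of the 9 was 1.2-fold higher in any gate, where 7.80%, 15.6% and 22.5% of all genes were. Medians of the log2 ratio over the 9 were -0.07, -0.30 and -0.30 in CD4 SP, CD8 SP and DP, beside 0.04, 0.03 and 0.08 over all genes.

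In CD8 SP and DP, fewer of the I173A cells were cycling-like, in CD8 SP mainly through cluster 7 (302 WT and 70 I173A cells). That cluster was low in Nkg7 and shared with the DP gate, so the loss is one of cells in the CD8 SP gate. Whether they were mature CD8 SP cells was not tested. Cycling-like cells made up 15.8% of WT and 8.11% of I173A CD8 SP cells (478 and 233 cells), and 15.4% and 4.73% of DP cells (388 and 128). In CD4 SP they were 1.74% and 1.65%. These cells carry much RNA and held 40.8% of all UMIs in the WT DP group against 14.9% in I173A.

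Most of the 9 genes were even more concentrated in them. In WT DP cells 63.9% of Nop58 UMIs, 58.5% of Myc, 57.7% of Fbl and 54.3% of Odc1 UMIs came from cycling-like cells. In WT CD8 SP cells the shares were 55.1% for Odc1, 53.5% for Ncl, 51.3% for Nop58 and 42.5% for Myc, beside 35.5% of all UMIs. Max stood below the share of all UMIs in both gates, at 29.3% in WT DP and 30.9% in WT CD8 SP cells. In I173A DP cells the shares were 27.6% for Fbl, 28.0% for Nop58 and 38.5% of Myc's 200 UMIs.

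**Figure D3:**
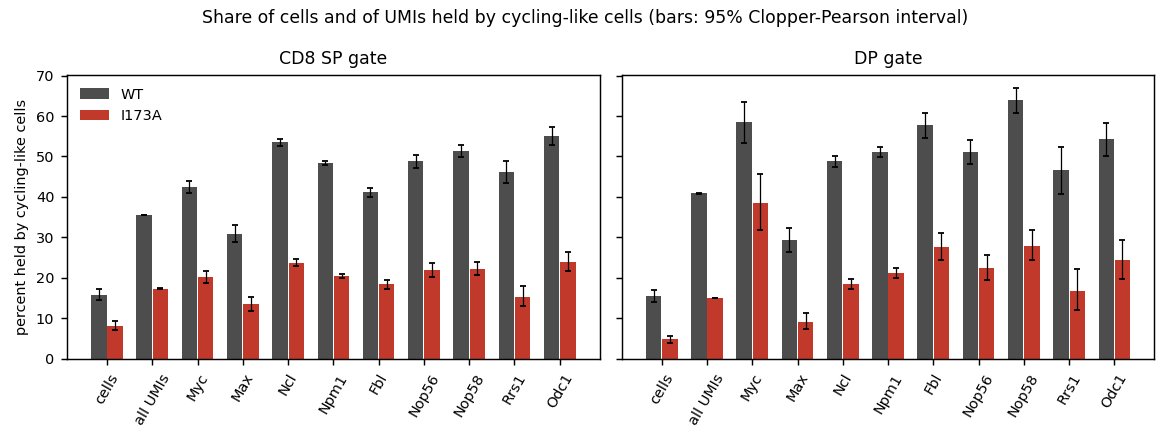
Percent of cells, of all UMIs and of each gene's UMIs held by cycling-like cells (vertical axes from 0) in the CD8 SP and DP gates, WT in grey and I173A in red, with 95% Clopper-Pearson intervals. All WT bars stand above the I173A bars, and in WT DP cells Nop58 reaches 63.9% against 40.8% for all UMIs.

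Without cycling-like cells the genotypes came closer for the nucleolar genes in CD8 SP and DP, and Myc stayed lower in I173A in all 3 gates. The summed nucleolar level was then 2255 against 2203 CPM for CD8 SP (ratio 0.977, 0.962 to 0.992) and 1168 against 1152 for DP cells (0.987, 0.956 to 1.02), with the CD4 SP ratio at 0.953 as before and then the lowest of the 3. Myc stood at 134 against 108 CPM for CD4 SP (0.806, 0.758 to 0.857), 175 against 155 for CD8 SP (0.886, 0.837 to 0.938) and 25.4 against 16.7 for DP cells (0.658, 0.514 to 0.840). Of the nucleolar genes, Nop56 kept an interval below 1 in both gates, at 0.927 (0.867 to 0.990) in CD8 SP and 0.848 (0.753 to 0.954) in DP. Leaving out these cells takes 1 of the 9 genes past 1.2-fold lower in CD4 SP (3.19% of all genes), 0 in CD8 SP (3.70%) and 2 in DP (Myc and Odc1; 6.40%). None of the 9 was 1.2-fold higher (8.00%, 7.15% and 11.6%), and the medians were -0.07, -0.03 and -0.06. The cells left were not equal in S phase genes. Of these, 15 of 19, 20 of 22 and 10 of 20 measured were lower in I173A CD4 SP, CD8 SP and DP cells (38.6%, 41.8% and 45.6% of all genes). By 1.2-fold 7, 14 and 1 were lower and 1, 0 and 5 higher, with medians of -0.18, -0.27 and 0.01. The part of this in the ratios left was not tested.

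Within the cycling-like class the make-up also differed. In the CD8 SP gate the summed nucleolar level of the class was 3926 CPM for WT against 2805 for I173A (ratio 0.715, 0.698 to 0.732). Cluster 7, which had the higher levels, held 302 WT and 70 I173A cells of that class, and cluster 10 held 162 and 156. In the DP gate the class had 1801 against 1739 CPM (0.966, 0.921 to 1.01).

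**Figure D4:**
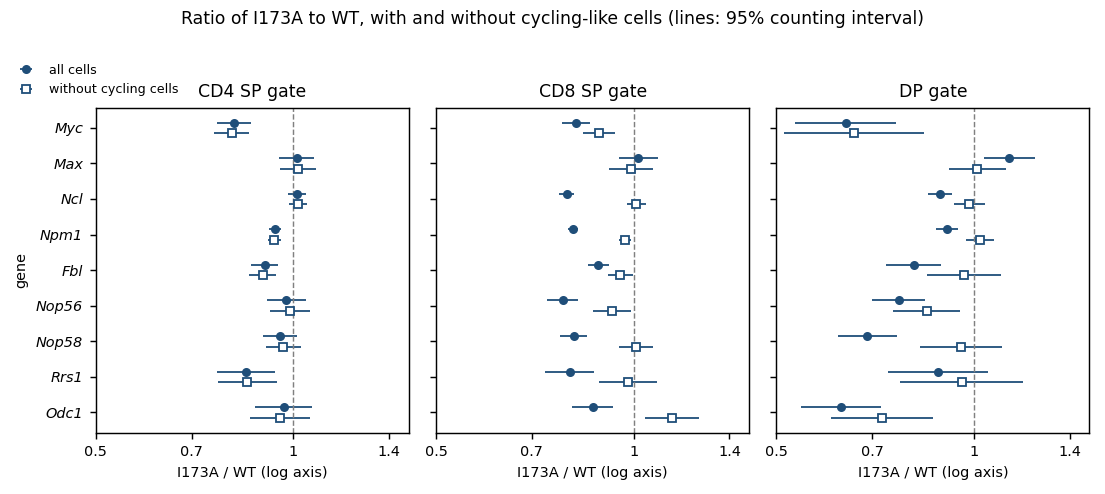
Ratio of I173A to WT for each gene (horizontal log axes, dashed line at 1) in the 3 gates, over all cells (filled circles) and without cycling-like cells (open squares), with 95% counting intervals. In CD8 SP the nucleolar genes lie between 0.779 and 0.884 over all cells and between 0.927 and 1.01 without cycling-like cells, while Myc is below 1 in every panel.

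Odc1 gave ratios on both sides of 1, by gate and by the cells counted. CD4 SP cells had 42.2 CPM in WT against 40.8 in I173A (ratio 0.966, 0.873 to 1.07), and DP cells 57.5 against 36.1 (0.628, 0.546 to 0.722). Without cycling-like cells the DP levels were 44.4 against 32.2 CPM (0.724, 0.605 to 0.866). CD8 SP cells had 80.6 against 69.8 CPM as a whole (0.866, 0.805 to 0.931), but 56.2 against 64.2 CPM without cycling-like cells (1.143, 1.04 to 1.26). Whether the gates differ was not tested.

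Inside single clusters the lower Myc of I173A cells was seen in most of the larger ones. In CD4 SP cells the ratio was 0.837 (0.763 to 0.917) in mature cells of cluster 3, 0.764 (0.671 to 0.869) in semimature cells of cluster 4 and 0.837 (0.733 to 0.955) in agonist-selected-like cells. In CD8 SP-like clusters 2 and 5 it was 0.865 (0.798 to 0.938) and 0.717 (0.630 to 0.815), and in rearranging DP-like cells of cluster 1 it was 0.677 (0.508 to 0.901). That DP value rests on 112 and 92 UMIs, of which 5 cells held 23.2% in WT and 26.1% in I173A.

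Dividing cells did not show it to the same extent. In S phase-like CD8 SP cells the ratio was 0.915 (0.780 to 1.07), in CD8 SP cycling-like clusters 10 and 7 it was 0.974 (0.829 to 1.15) and 0.888 (0.778 to 1.01), and in DP cluster 7 it was 1.09 (0.818 to 1.44). Whether these ratios differ from those of the other clusters was not tested.

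CD8 SP agonist-selected-like cells went the other way, with few cells behind the value. Myc was at 415 CPM in 88 WT and 603 CPM in 90 I173A cells, a ratio of 1.46 (1.25 to 1.70). The 5 cells with the most Myc held 26.6% of its UMIs in WT and 39.9% in I173A, the highest single cell had 17 and 45 UMIs, and the median cell had 1 UMI in WT and 0 in I173A. Npm1 and Fbl were lower in the same cells, at ratios of 0.785 (0.732 to 0.842) and 0.736 (0.629 to 0.860), and Ncl was equal at 1.00 (0.912 to 1.10).

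Over the 13 comparisons within a cluster, leaving out the low-RNA cluster 12, Myc was below 1 in 10, with the interval below 1 in 6 and above 1 in 1. One of the 3 values above 1, in DP cluster 8, rests on 1 and 4 UMIs. Max was below 1 in 6 and above in 7, with no interval that left out 1. Of the 78 values of the nucleolar genes 57 were below 1, and 13 intervals lay below and 3 above. The share of all genes below 1 was not counted within clusters. Medians of the log2 ratio over all genes lay between 0.01 and 0.05 in the 13 comparisons. In CD8 SP cycling-like cluster 7, 7 of the 9 genes were below 1, among them Nop56 at 0.739 (0.637 to 0.853) and Rrs1 at 0.648 (0.501 to 0.827). There 3 of the 9 were lower by 1.2-fold and 0 higher, beside 17.3% and 22.8% of all genes.

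Odc1 had an interval on 1 side of 1 in 2 large clusters. In rearranging DP-like cells of cluster 1 it had 37.3 CPM in WT against 26.1 in I173A (ratio 0.6995, 0.559 to 0.874), with Nop56 also lower at 0.845 (0.739 to 0.966), while Ncl stood at 0.996 and Npm1 at 1.02. In CD8 SP-like cells of cluster 2 it had 42.6 against 55.2 CPM (1.30, 1.13 to 1.495), with Ncl at 1.10 (1.05 to 1.16) and Npm1 at 1.03 (1.001 to 1.06) above 1 as well. All other Odc1 intervals within a cluster held 1.

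**Figure D5:**
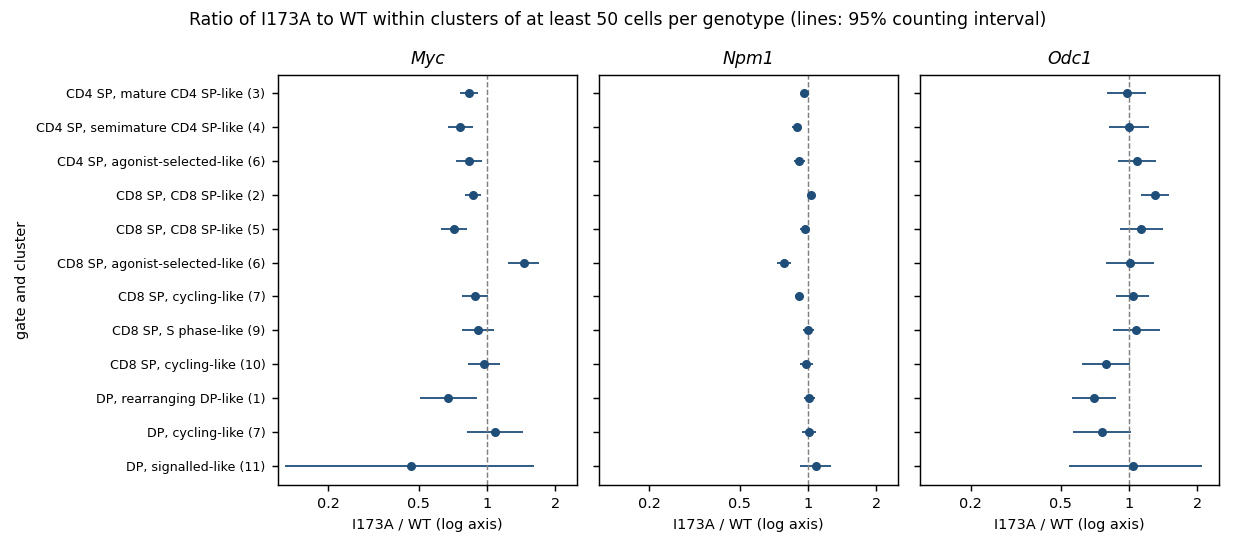
Ratio of I173A to WT (horizontal log axes, dashed line at 1) of Myc, Npm1 and Odc1 within each gate and cluster of at least 50 cells per genotype, with lines for the 95% counting interval and the low-RNA clusters 8 and 12 not drawn. Myc lies below 1 in the CD4 SP clusters and above it in the CD8 SP agonist-selected-like cells (1.46), where Npm1 is at 0.785.

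Other genes of the Myc network encode partners of Max, of its relative Mlx or of Myc itself, and they differed in direction among themselves. Of 9 measured members 8 were higher in I173A CD4 SP cells and 6 in each of CD8 SP and DP, where 61.9%, 55.3% and 62.7% of all genes of at least 5 CPM were above 1. Their median log2 ratios were 0.13, 0.17 and 0.19. Mxd4, which with Max acts against Myc at shared sites, stood at 165 against 197 CPM for CD4 SP (ratio 1.196), 107 against 128 for CD8 SP (1.198) and 252 against 362 for DP cells (1.44). Without cycling-like cells these ratios were 1.204, 0.988 and 1.13. Mxd3, a member of the same family that led the cycling-like cluster 10, stood at 45.7 against 25.9 CPM for CD8 SP (0.566) and 76.6 against 28.3 for DP cells (0.369). Mxi1, of that family too, was lower in CD8 SP (0.696, 0.587 to 0.824), and at 0.909 (0.722 to 1.15) there without cycling-like cells. Mxd1 was higher in CD4 SP (1.30, 1.142 to 1.48) and lower in DP (0.785, 0.648 to 0.948).

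Most other genes of small nucleolar particles and of their assembly were lower as well. Of 15 besides Fbl, Nop56 and Nop58, those lower in I173A numbered 13 for CD4 SP, 14 for CD8 SP and 15 for DP cells, beside 38.1%, 44.7% and 37.3% of all genes. By 1.2-fold 1, 6 and 7 were lower, beside 3.15%, 13.6% and 12.9% of all genes. Median log2 ratios were -0.13, -0.20 and -0.26, and without cycling-like cells -0.13, -0.06 and -0.04. Snu13, the first protein to bind a C/D RNA, had 372 against 252 CPM in CD8 SP cells (0.678, 0.654 to 0.703). Nhp2, of the H/ACA particles that make pseudouridine, had 65.5 against 49.8 CPM in DP cells (0.760) and 103 against 89.9 in CD4 SP cells (0.871). Without cycling-like cells Snu13 in CD8 SP was at 0.907 (0.864 to 0.953). Nhp2 was then at 0.986 (0.836 to 1.16) in DP and 0.874 in CD4 SP.

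Ribosome assembly factors and RNA polymerase I genes had medians nearer 0. Of 67 assembly factors, 55 were lower in CD4 SP and 53 in CD8 SP, against 38.1% and 44.7% of all genes, with medians of -0.08 and -0.10. Those lower by 1.2-fold numbered 2 and 10, which is near the shares of all genes (3.15% and 13.6%). In DP 29 of 66 measured were lower and 8 by 1.2-fold (37.3% and 12.9% of all genes), with a median of 0.01. Gnl3, which encodes nucleostemin, was among the lowest in DP at 36.1 against 23.7 CPM (0.656, 0.550 to 0.781), as was Lyar in CD8 SP at 94.5 against 66.6 CPM (0.705). Without cycling-like cells Gnl3 was at 1.01 (0.799 to 1.29) and Lyar at 0.944 (0.858 to 1.04). Of 14 genes of RNA polymerase I and its factors, those lower by 1.2-fold numbered 0 for CD4 SP, 0 for CD8 SP and 1 for DP cells, with medians of 0.00, -0.07 and 0.03. Ubtf, an activator of RNA polymerase I, had ratios of 0.906, 0.855 and 0.893. These became 0.910, 0.967 and 0.931 without cycling-like cells, when the CD8 SP and DP intervals held 1.

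Of 14 polyamine pathway genes, Odc1 among them, 7 were higher and 7 lower in I173A DP cells, 4 and 6 of them by 1.2-fold, beside 62.7% of all genes above 1 and 22.5% and 12.9% past 1.2-fold. The lowest 3 were Odc1 and the synthases Srm (25.4 against 15.1 CPM, ratio 0.596) and Sms (94.7 against 64.7 CPM, 0.683). The highest 3 were Paox (1.41) and Smox (1.33), which break polyamines down, and the Odc1 inhibitor Oaz2 (1.30). Without cycling-like cells Srm was at 0.970 (0.693 to 1.36) and Sms at 0.868 (0.757 to 0.996), and the intervals of Paox, Smox and Oaz2 held 1. Over the list the median log2 ratios were -0.03 for CD4 SP, -0.17 for CD8 SP and -0.03 for DP.

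A list of 40 Myc-linked growth genes, mostly of metabolism and protein folding, had medians of -0.08, -0.23 and -0.22, with 34 of 38, 33 of 38 and 30 of 37 measured genes lower (38.1%, 44.7% and 37.3% of all genes). Those lower by 1.2-fold numbered 0, 17 and 16, where 3.15%, 13.6% and 12.9% of all genes were. Dctpp1, which clears modified nucleotides, had 149 against 86.2 CPM in CD8 SP cells (0.577) and 67.7 against 38.2 in DP cells (0.565). Mthfd2, of mitochondrial folate metabolism, had 40.02 against 21.6 CPM in DP cells (0.540). Without cycling-like cells Dctpp1 was at 0.916 (0.835 to 1.004) in CD8 SP and 1.02 (0.795 to 1.31) in DP. Mthfd2 in DP was then at 1.15 (0.775 to 1.71). Over all cells cyclin D2 (Ccnd2) differed by gate, at 472 against 397 CPM for CD4 SP (0.841) and 352 against 421 for CD8 SP (1.197). Its ratios without cycling-like cells were below 1 in both gates, at 0.845 for CD4 SP and 0.959 (0.928 to 0.991) for CD8 SP. Without cycling-like cells the list's medians were -0.09, -0.06 and -0.03.

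Likeness to other genes was described over 35 gate, genotype and cluster profiles and 7041 genes, by Pearson's r of log2(CPM + 1). The profiles share libraries and differ in depth, so r is a description only. Myc was most like Mettl1 (0.867), a transfer RNA methyltransferase gene, followed by Ppa1, Noc2l, Pus1 and Grwd1 (0.837), and its r with the median UMIs per cell was 0.576. With the members, it was highest for Fbl (0.794) and Npm1 (0.741), 0.240 for Odc1 and -0.32 for Max. The r of Myc with Nr4a1 was 0.143.

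The summed nucleolar genes were most like Shmt2 (0.947), of mitochondrial serine metabolism, then Eif3b, Pgam1, Serbp1 and Nhp2 (0.931). Their r was 0.779 with Myc, 0.689 with the S phase gene Mcm5, 0.095 with the division marker Mki67 and 0.768 with depth. Odc1 was most like Kcnq5 (0.755), Naf1, Umps, Nop56 (0.689) and Ncl (0.654). Max was most like Trip4 (0.846), Slfn5, Tmem154, E330009J07Rik and L3mbtl3, with -0.83 for Mcm5 and -0.68 for depth.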

How the data were processed

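The 3 RNA libraries (CD4 SP, CD8 SP and DP) were used. The authors deposited raw UMI counts per gene and barcode, and the hashtag counts stand in the same matrices. Cell Ranger 6.0.1 and GRCm38 (mm10) are named for them per the submitters' processing notes, and software version 3.1.0 is given per the file headers. A barcode was given a hashtag that reached 10 counts and 4 times the next. Barcodes with several hashtags (4.20% to 5.72%) were left out as doublets, while doublets within a genotype remain. Kept cells had 500 or more genes and no more than 10% of UMIs from mitochondria. UMIs were summed per group and divided by the group total (CPM). Exact Poisson intervals were used for levels, exact conditional intervals for ratios and Clopper-Pearson intervals for shares (SciPy 1.17.1). Only the ratio intervals were run on simulated data, drawn as Poisson counts without the clumping of UMIs in single cells. All intervals cover counting error only.

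Cells were clustered with Scanpy 1.11.5 and leidenalg 0.10.2 (2000 variable genes, 30 principal components, 15 neighbours, resolution 1), leaving out the 9 genes and related lists. Cycling-like cells are clusters 7, 10, 14 and 18. The 9 genes are always named. Of each list, up to 3 genes at either end of the ratio per gate are named, and of likeness 5 genes of at least 20 CPM. The members and lists were chosen with earlier results of these data known. TCR files were not used here.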

Additional observations from a re-analysis of the deposited data

Results flagged for a closer look

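Within the CD8 SP gate, clusters differed in the direction of 3 of the genes, with intervals on opposite sides of 1; the differences between clusters were not tested. Myc had a ratio of I173A to WT of 1.46 in agonist-selected-like cells (cluster 6) and of 0.865 and 0.717 in the CD8 SP-like clusters 2 and 5. Ncl had a ratio of 1.10 in cluster 2 and 0.880 in cycling-like cluster 7. Npm1 had a ratio of 1.03 in cluster 2, 0.785 in cluster 6 and 0.910 in cluster 7.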

How the results depend on the processing

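Gate medians of the log2 ratio over the 9 genes depended on dividing and RNA-rich cells. In CD8 SP the median of -0.30 became -0.13 as a mean of CPM per cell, -0.028 without cycling-like cells, -0.013 without cycling-like and S phase-like cells, -0.098 with both genotypes at WT cluster shares and -0.13 with cells thinned to 1500 UMIs. In DP -0.30 became -0.11, -0.062, -0.062, -0.098 and -0.12 in the same order. Single genes turned above 0 on the log2 scale in CD8 SP without cycling-like cells (Ncl 0.014, Nop58 0.014 and Odc1 0.19), without cycling-like and S phase-like cells (Ncl 0.035, Nop58 0.077 and Odc1 0.23) and at WT cluster shares (Odc1 0.071). In DP, Npm1 turned to 0.012 as a mean per cell, 0.033 without cycling-like cells, 0.033 also without S phase-like cells, and 0.0012 after thinning. Myc was below 0 in every gate under these alternatives, and nearest to it in DP at WT cluster shares (-0.044). Other hashtag rules, no cell filter, a total without ribosomal protein and mitochondrial genes, and leaving out clusters 12, 13 and 19 (chosen after seeing the data) moved no gene or median by more than its error. A median-of-ratios size factor moved 4 of the genotype ratios by gene and gate and left 23 the same. Between WT gates, the median log2 ratio of DP to CD4 SP was -0.32 and became -0.59 by the median gene, -0.59 as a mean per cell, -0.75 without cycling-like cells and -0.61 after thinning, while DP to CD8 SP went from -1.03 to -1.46 by the median gene. Of the 9 genes, 1 was highest in WT cycling-like or S phase-like clusters at resolution 1, 7 at resolution 0.5 and 2 at 1.5. The cause was not tested. Thinning left out 310 WT and 288 I173A DP cells for depth. No paired analysis was possible because each genotype was 1 sample per gate.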

Other observations

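Cells with hashtag 5, which has no genotype in the labels, numbered 2829 (CD4 SP), 2745 (CD8 SP) and 2765 (DP). Their levels follow in CPM, always in that order of gates. Myc stood at 112, 167 and 26.8, between the WT and I173A levels in each gate. Ncl stood at 440, 655 and 496, Npm1 at 928, 1442 and 609, Nop58 at 127, 196 and 99.9, and Odc1 at 43.9, 79.2 and 63.1. Max stood at 118, 81.9 and 101, Fbl at 205, 292 and 92.8, Nop56 at 96.8, 154 and 109, and Rrs1 at 42.8, 57.8 and 32.1. Jun stood at 39.8, 34.7 and 106 in these cells, Hsph1 at 30.6, 48.7 and 21.4, and Mki67 at 77.2, 219 and 543.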
